A study of Mus musculus with 4 samples.

Results

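The Hox genes are described here in 4 bulk messenger RNA libraries of mouse brain, 2 from Stra8 knockout (KO) animals and 2 from wild-type (WT) animals. The genes were taken by name from the 4 Hox clusters (Hoxa, Hoxb, Hoxc and Hoxd), without antisense genes, and 38 of the 55414 genes in the table are described. Per the series design, animals of both genotypes carry pStra8-GFP, in which the Stra8 promoter drives a green fluorescent protein, and fluorescent cells were sorted from hippocampi. The tissue is labelled brain. Age, sex, strain, allele and how many animals a library holds were not given. The stated question is how the transcriptome of such cells differs without Stra8, a gene best known for its induction by retinoic acid and its role in germ cells entering meiosis.

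Hox genes encode homeodomain transcription factors that give cells their position along the head-to-tail axis. The genes of a cluster lie in the order in which they are used along that axis, and the genes at the same place in different clusters form a paralog group, numbered from 1 to 13. Groups 1 to 4 have their front limits in the developing hindbrain, group 5 near its border with the spinal cord and later groups within the spinal cord, and the forebrain, which includes the hippocampus, forms without Hox expression. Retinoic acid turns on many Hox genes in the embryo, and hindbrain and spinal neurons keep part of their Hox expression in adult life.

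Total counts were between 71097417 and 82172740 per library. Markers of the hippocampus were present in every library, with 6 genes summing to 244 and 235 CPM (counts scaled to library size) in KO and 286.7 and 286.9 CPM in WT. Cerebellar and pituitary markers were present in every library too, so the libraries held transcripts of more regions than the hippocampus. Stra8 itself had 7 and 4 reads in the KO libraries and 5 and 1 in the WT libraries, which does not check the labels. Both Xist and the Y-linked Ddx3y were read in every library. Xist had 441 and 420 CPM in KO and 297 and 287 CPM in WT. Ddx3y went the other way, with 11.9 and 11.6 CPM in KO and 27.9 and 28.1 CPM in WT. Both were called by edgeR, with log2 fold changes of 0.56 for Xist and -1.25 for Ddx3y. A mix of sexes that differs between the genotypes was not tested and cannot be told apart from genotype. The names of both KO columns in the count table end in an added word that neither WT column has. What it stands for is not stated, and it cannot be told apart from genotype. The labels do not tie the libraries to separate animals, so p-values measure only the spread between these libraries, which may be technical.

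Hox transcripts were rare in all 4 libraries and were less abundant in both KO libraries than in both WT libraries. Together the 38 genes had 141 and 145 reads in the KO libraries, against 321 and 333 reads in the WT libraries. This is 1.72 and 2.05 CPM in KO and 3.98 and 4.06 CPM in WT, with library sizes scaled by TMM. The 2 genotypes did not overlap, with means of 1.88 ± 0.23 CPM in KO and 4.02 ± 0.057 CPM in WT (SD, n = 2 each). The mean level was 53.1% lower in KO, a log2 ratio of -1.09, and the libraries of a genotype differed by a smaller amount (a standard deviation of at most 0.18 on the log2 scale). No p-value is given for this sum, since it is a score over chosen genes. With 1 library left out at a time the log2 ratio lay between -1.22 (without KO library 2) and -0.97 (without KO library 1). In bulk libraries such as these, fewer cells that express a gene and less RNA per cell cannot be told apart.

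Most of the Hox reads lay in groups 1 to 5. Of the 38 genes, 18 had a read in at least 1 library and 20 had 0 reads in all 4. Of the 16 genes in groups 9 to 13, the groups of the rear spinal cord, limbs and genital region, 15 were at 0 everywhere. The exception was Hoxd13, known from digit development, with exactly 2 reads in each of the 4 libraries. Groups 1 to 5 held 92.9% and 91.7% of the Hox reads in the KO libraries and 90.03% and 90.99% in the WT libraries. Groups 6 to 8 held 5.67% and 6.897% in KO against 9.35% and 8.41% in WT. The exact 95% binomial intervals of all 4 libraries overlapped for both shares, from 86.0% to 96.6% for groups 1 to 5 and from 2.48% to 13.1% for groups 6 to 8. With 3 reads as the limit that a count of 0 allows, a gene at 0 could have up to 0.0366 to 0.0423 CPM depending on the library, for counting error only and if reads were independent.

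**Figure D1:**
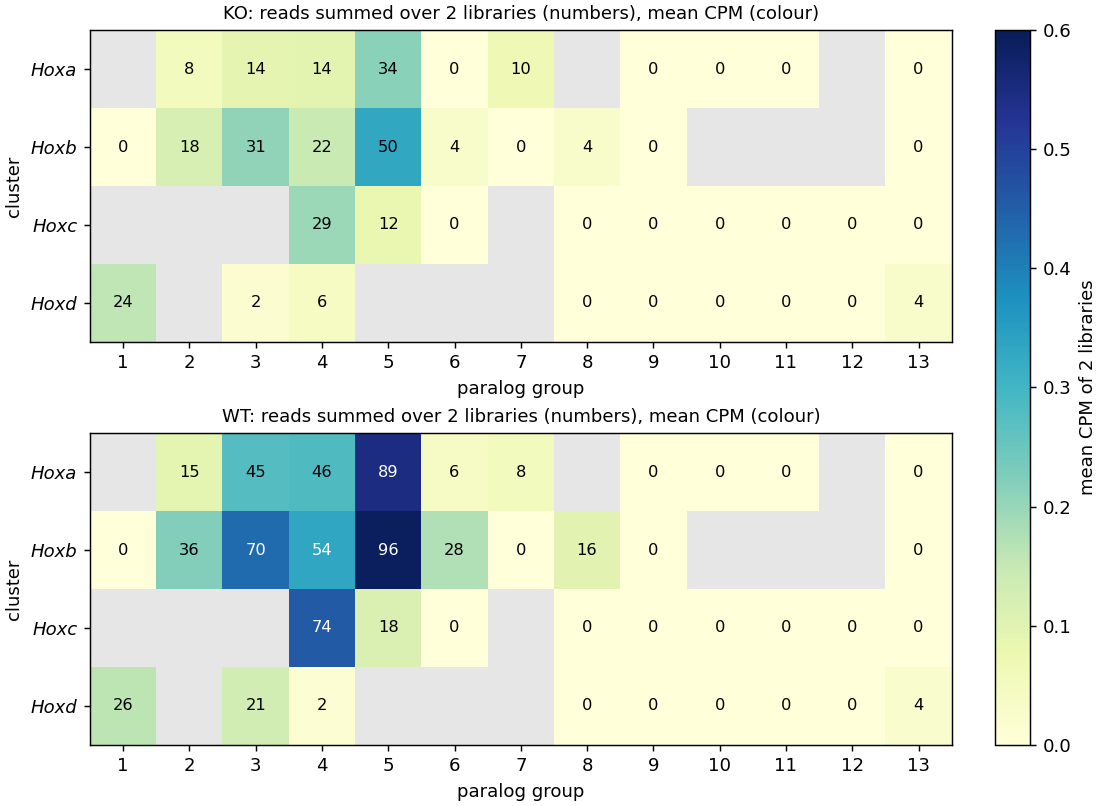
Reads of each Hox gene by cluster (rows) and paralog group (columns), summed over the 2 KO libraries (top) and the 2 WT libraries (bottom), with the mean CPM as colour; grey cells hold no gene described here. Reads gather in groups 2 to 5, where Hoxb5 has 50 reads in KO and 96 in WT, and the cells of groups 9 to 12 are all at 0 in both genotypes.

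The genes at 0 included some that lie between genes with reads. In the Hoxb cluster Hoxb7 had 0 reads in every library, while its neighbours Hoxb6 and Hoxb8 had reads in all 4. In the Hoxa cluster the last gene with reads was Hoxa7, in the Hoxc cluster it was Hoxc5, and in the Hoxd cluster Hoxd8 to Hoxd12 were at 0. Hoxb1, known from the embryonic hindbrain, also had 0 reads in all 4 libraries.

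Of the 10 genes that passed the expression filter, 5 had an entry in the RefSeq promoter table (GRCm38.p6), and their windows are shown as the sequences of genes whose values are given in full here. None of the 5 genes was called higher or lower. Each window runs from 250 bases before the annotated start to 50 bases after it, on the strand of the gene. Capitals mark the half-sites to which retinoic acid receptors bind (AGGTCA, or one of its forms GGGTCA, or AGTTCA, or GGTTCA, searched on both strands).
Hoxa3, chr6:52213018-52213317, minus strand: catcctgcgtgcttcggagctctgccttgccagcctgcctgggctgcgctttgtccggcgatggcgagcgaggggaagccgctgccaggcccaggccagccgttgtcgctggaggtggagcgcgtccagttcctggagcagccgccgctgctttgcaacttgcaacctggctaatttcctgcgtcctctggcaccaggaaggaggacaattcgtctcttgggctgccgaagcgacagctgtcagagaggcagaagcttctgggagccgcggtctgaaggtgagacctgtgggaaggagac
Hoxa5, chr6:52204538-52204837, minus strand: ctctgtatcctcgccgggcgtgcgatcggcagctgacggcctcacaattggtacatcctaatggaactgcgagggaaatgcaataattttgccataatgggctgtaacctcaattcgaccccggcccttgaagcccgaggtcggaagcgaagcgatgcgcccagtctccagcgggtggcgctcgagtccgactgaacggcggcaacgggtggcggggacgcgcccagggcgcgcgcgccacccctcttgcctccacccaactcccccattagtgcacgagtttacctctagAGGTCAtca
Hoxb4, chr11:96318017-96318316, plus strand: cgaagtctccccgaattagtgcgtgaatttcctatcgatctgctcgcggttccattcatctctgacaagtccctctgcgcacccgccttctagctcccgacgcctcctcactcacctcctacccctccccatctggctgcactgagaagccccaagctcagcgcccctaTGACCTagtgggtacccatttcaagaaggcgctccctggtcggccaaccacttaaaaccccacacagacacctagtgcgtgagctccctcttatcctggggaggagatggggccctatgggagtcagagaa
Hoxc4, chr15:103034145-103034444, plus strand: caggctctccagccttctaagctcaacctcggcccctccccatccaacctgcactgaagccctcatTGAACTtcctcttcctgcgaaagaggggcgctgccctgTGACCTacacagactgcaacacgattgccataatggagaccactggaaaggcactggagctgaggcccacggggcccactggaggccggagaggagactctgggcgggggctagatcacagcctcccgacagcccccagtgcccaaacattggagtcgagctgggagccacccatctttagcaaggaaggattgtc
Hoxd1, chr2:74762730-74763029, plus strand: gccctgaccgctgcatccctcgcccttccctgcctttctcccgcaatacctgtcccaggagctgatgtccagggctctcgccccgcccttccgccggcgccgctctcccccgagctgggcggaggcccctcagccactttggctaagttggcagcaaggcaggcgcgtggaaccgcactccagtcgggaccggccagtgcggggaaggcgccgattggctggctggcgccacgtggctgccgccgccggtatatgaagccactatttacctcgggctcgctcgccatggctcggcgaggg

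The windows of Hoxa5, Hoxb4 and Hoxc4 held such half-sites and those of Hoxa3 and Hoxd1 held none. With the start counted as 1 and the base before it as -1, Hoxa5 had AGGTCA at 42 on its own strand. Hoxb4 had AGGTCA at -81 on the opposite strand, and Hoxc4 had AGTTCA at -184 and AGGTCA at -146, both on the opposite strand. Of all 32851 promoter windows of the table, 43.7% held at least 1 of the 4 forms and 16.3% held AGGTCA, so a single half-site is common. A pair of half-sites in the same direction, 5 bases apart or 2 bases apart, was in 0.0974% and 0.268% of all windows and in none of the 24 windows of the 22 Hox genes that the table holds. The window of Hoxa3 belongs to a start upstream of Hoxa5 and Hoxa6. The coordinates are of GRCm38 and the counts were made on GRCm39, so the windows show sequence only.

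Per length, Hoxa5 and Hoxb5 had the highest mean levels in both genotypes. On the scale of RPKM (CPM per kilobase of exon, with exon lengths from GENCODE M21), Hoxa5, a gene of neck-level motor neurons and of the lung, had 0.169 and 0.0601 in the KO libraries, against 0.317 and 0.266 in the WT libraries. Hoxb5, which takes part in the development of the enteric nervous system, had 0.105 and 0.132 in KO and 0.178 and 0.245 in WT. In WT the levels of these genes did not overlap, while in KO they did. Below them in WT came Hoxa4 (0.171 to 0.184 RPKM) and Hoxc4 (0.171 to 0.183 RPKM), which overlapped each other and Hoxb5, and then Hoxb4 (0.126 to 0.133 RPKM). Hoxb3, Hoxb6 and Hoxd1 followed with overlapping levels, from 0.0524 to 0.1204 RPKM in WT. In KO, Hoxd1 (0.0787 and 0.0909 RPKM) followed them by its mean, and its range overlapped those of Hoxa4 and Hoxc4. The other 10 genes with reads, Hoxc5 and Hoxd4 among them, had mean levels of 0.0042 to 0.0635 RPKM in WT and of 0 to 0.0342 RPKM in KO.

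In group 5 all 3 genes had reads in every library. Hoxa5 (ENSMUSG00000038253) had 26 and 8 reads in KO and 48 and 41 reads in WT, and the KO libraries differed from each other by more than the WT libraries did. Hoxb5 (ENSMUSG00000038700) had 24 and 26 reads in KO and 40 and 56 in WT. Both genes were below WT in both KO libraries, an order that 18.4% of all genes with a read in any library had. Hoxc5, which acts with Hoxa5 in the motor neurons of the diaphragm, had 4 and 8 reads in KO and 12 and 6 in WT, so its genotypes overlapped. The 3 genes summed to 0.626 ± 0.047 CPM in KO and 1.25 ± 0.011 CPM in WT (SD, n = 2 each), a log2 ratio of -0.99.

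Group 4 showed the same order for 3 of its 4 genes, against 18.4% of all genes with a read in any library. Hoxa4 had 4 and 10 reads in KO and 22 and 24 in WT. Hoxb4, also studied for its action in blood stem cells, had 12 and 10 reads in KO and 26 and 28 in WT. Hoxc4 had 10 and 19 reads in KO and 38 and 36 in WT. These 3 genes had no overlap between genotypes, and in Hoxa4 and Hoxc4 the lower KO value was from library 1. Hoxd4, a gene that answers to retinoic acid in the embryonic hindbrain, had 2 and 4 reads in KO and 2 and 0 in WT, within what single read pairs can give. The group summed to 0.474 ± 0.187 CPM in KO and 1.08 ± 0.013 CPM in WT, a log2 ratio of -1.19.

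The group 3 genes, which pattern the rear hindbrain and the throat, had the widest gap among the groups with over 50 reads in WT. Hoxb3 had 13 and 18 reads in KO and 28 and 42 in WT. Hoxa3, needed for the thymus and parathyroid, had 10 and 4 reads in KO and 22 and 23 in WT. Hoxd3 had 0 and 2 reads in KO and 7 and 14 in WT. None of the 3 genes overlapped between genotypes, where 18.4% of all genes with a read had both KO libraries below both WT libraries. The group summed to 0.310 ± 0.041 CPM in KO and 0.835 ± 0.181 CPM in WT, a log2 ratio of -1.43. Reads of all 3 genes are uncertain because of overlapping exons. Hoxb3, with most of the reads of the group, shares 2250 of its 4251 exon bases with the antisense gene Hoxb3os, Hoxa3 shares bases with 4 antisense genes and with Gm28308 on its own strand, and Hoxd3 shares them with Hoxd4.

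At the front of the clusters, reads were fewer than in groups 3 to 5. In group 2, Hoxb2, which acts in the neurons of the facial nerve, had 8 and 10 reads in KO and 22 and 14 in WT. Hoxa2, the Hox gene with the foremost limit in the hindbrain, had 6 and 2 reads in KO and 4 and 11 in WT, and overlapped. Hoxd1 (ENSMUSG00000042448), in mouse a gene of pain-sensing neurons, had 12 and 12 reads in KO and 18 and 8 in WT. Its genotype means nearly coincided, at 0.158 ± 0.016 CPM in KO and 0.160 ± 0.089 CPM in WT (SD, n = 2 each). Its estimated change was -0.023 on the log2 scale (SE 0.62; edgeR, adjusted p = 0.993), an error wide enough to hold changes like those of its neighbours, and the sign turned under other settings.

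Behind group 5 the counts were small. Hoxb6 (ENSMUSG00000000690) had 2 and 2 reads in KO and 16 and 12 in WT, which is 0.024 and 0.028 CPM in KO and 0.198 and 0.146 CPM in WT. The exact 95% Poisson intervals were 0.242 to 7.22 reads in each KO library, and 9.15 to 26 and 6.2 to 21 reads in the WT libraries, so the KO intervals reached into that of WT library 2 and not into that of WT library 1. Hoxa6 had 0 and 0 reads in KO and 4 and 2 in WT, and was the 1 gene read in WT but in neither KO library. Hoxb8, whose loss makes mice groom excessively, had 2 and 2 reads in KO and 4 and 12 in WT. Hoxa7 had 4 and 6 reads in KO and 6 and 2 in WT, and overlapped. Group 6 took 1.42% and 1.38% of the Hox reads in KO against 6.23% and 4.20% in WT, with exact 95% intervals that overlapped (up to 5.03% in KO, from 2.32% in WT).

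**Figure D2:**
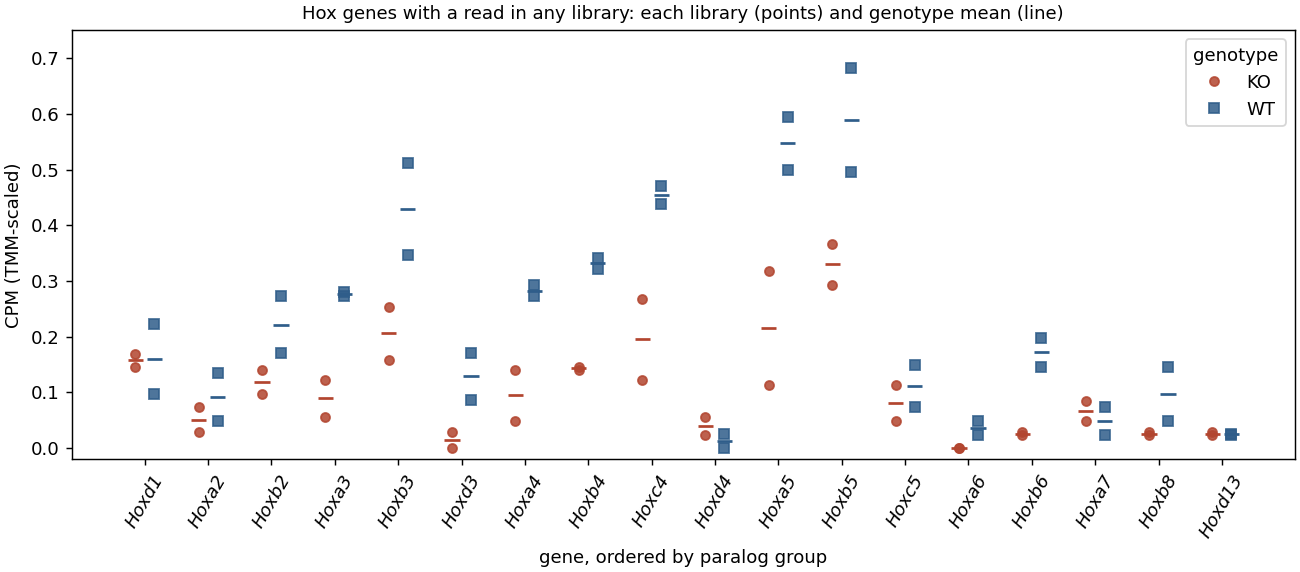
CPM of the 18 Hox genes with a read in any library, ordered by paralog group; circles are the 2 KO libraries, squares the 2 WT libraries, and short lines the genotype means. Both KO points lie below both WT points in 12 genes, Hoxb5 has the highest mean in both genotypes, and the means of Hoxd1 nearly coincide.

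Counted over all 38 genes, both KO libraries were below both WT libraries in 12 genes, above them in 0, and overlapped in 6, and the other 20 were at 0. Of the 12 genes, 11 belonged to groups 2 to 6, as did 14 of the 18 genes with a read. Among the 18 genes with a read this is 66.7%, where the same order held for 18.4% of the 33367 genes of the table with a read in any library. That share is over genes of all levels and is not matched to the low counts of the Hox genes. The 18 genes lie together in clusters and some share exon bases, so they may not vary independently. Of the 68 counts above 0 in these genes 62 were even numbers (91.2%), so both mates of a pair seem to have been counted, and the Poisson and binomial intervals, which treat reads as independent, are too narrow.

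**Figure D3:**
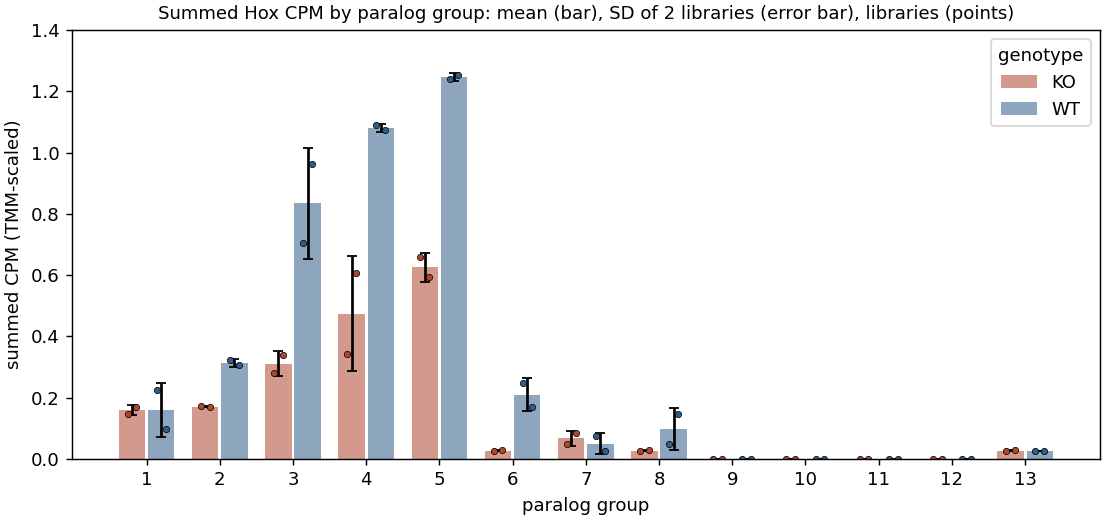
Summed CPM of the Hox genes of each paralog group; bars are means, error bars the SD of the 2 libraries of a genotype, and points the libraries. Groups 2 to 6 and group 8 lie lower in both KO libraries than in both WT libraries, groups 1, 7 and 13 overlap, and groups 9 to 12 are at 0.

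All 4 clusters were lower in both KO libraries. Hoxa genes summed to 0.517 ± 0.132 CPM in KO and 1.28 ± 0.041 CPM in WT, a log2 ratio of -1.31. For Hoxb genes the sums were 0.852 ± 0.152 CPM in KO and 1.84 ± 0.222 CPM in WT (-1.11), and for Hoxc genes 0.276 ± 0.149 CPM in KO and 0.566 ± 0.076 CPM in WT (-1.04). The gap was smallest for Hoxd genes, with 0.195 and 0.282 CPM in the KO libraries and 0.359 and 0.293 CPM in the WT libraries (-0.45), and here KO library 2 came close to WT library 2. The Hoxa share of all Hox reads was 35.5% and 20.7% in KO and 33.02% and 30.9% in WT, with the lowest value in KO library 2.

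Gene by gene the test did not separate the genotypes. Of the 38 genes 10 passed the expression filter, 6 of them through the WT libraries alone, and 0 were called higher or lower at an adjusted p under 0.05 (edgeR quasi-likelihood test, Benjamini-Hochberg over 21592 genes, 2 KO and 2 WT libraries). Over all tested genes 3.19% were called lower and 3.35% higher. Among the 4423 tested genes with mean counts from 8 to 36.5, the range of these 10 genes, 0.136% were called lower, so calls were rare at such counts. At an unadjusted p under 0.05, 8 of the 10 were lower in KO and 0 higher, against 8.53% lower over all tested genes and 2.71% in that count range. Since a gene high only in WT passes the filter, the count among the 10 is not taken as support. Limma-trend also called 0, and DESeq2 gave none of the 10 an adjusted p.

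The smallest p belonged to Hoxb6, at -2.64 on the log2 scale (SE 0.83; edgeR, adjusted p = 0.0568). For Hoxa5 it was -1.31 (SE 0.45, edgeR adjusted p = 0.0915) and for Hoxb5 -0.84 (SE 0.38, edgeR adjusted p = 0.239). Hoxa3 and Hoxa4 both had -1.59, Hoxc4 -1.24, Hoxb4 -1.20, Hoxb3 -1.07 and Hoxb2 -0.89, with edgeR adjusted p from 0.136 to 0.508. Each of these 9 estimates was below 0, and stayed below 0 with any 1 library left out. All but Hoxb3, Hoxb4 and Hoxb5 had passed the filter through the WT libraries alone, which favours a sign below 0. The signs are therefore not taken as support. Several sizes depended on which KO library was kept. Hoxa3 had -2.26 without KO library 1 and -1.17 without KO library 2, Hoxa4 had -0.99 and -2.49 in that order, and Hoxc4 -0.76 and -1.88, and none of the 3 was called. Hoxb2 had -0.52 without WT library 1. For Hoxa5 the call depended on it too. Without KO library 1, which had 26 reads, the log2 fold change was -2.26 (edgeR adjusted p = 0.0136), and without KO library 2 it was -0.78 (edgeR adjusted p = 0.484).

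In a list of TALE homeodomain genes, which includes those for proteins that bind DNA together with Hox proteins, 0 were called lower in KO. All 11 listed genes of the Pbx, Meis, Pknox and Tgif families were tested. Of these 2 were called higher, 0 lower and 9 were not called, against 3.35% higher and 3.19% lower over all tested genes. The median log2 fold change was 0.084, against -0.00038 over all tested genes. Meis2 had 162 and 163 CPM in KO and 146 and 145 CPM in WT, and rose by 0.16 on the log2 scale (SE 0.021, edgeR adjusted p = 9.12e-06). Pknox2 rose by 0.16 (SE 0.036, edgeR adjusted p = 0.00615), a call lost without KO library 2 (edgeR adjusted p = 0.103). Hox cofactors are used in the forebrain as well as in the hindbrain, and the sum of the 11 listed genes was 563 and 561 CPM in KO against 531 and 533 CPM in WT.

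Of 19 listed genes known to act upstream of Hox genes, 15 passed the expression filter. Against shares of 3.19% lower and 3.35% higher over all tested genes, 0 of the 15 tested fell and 3 rose. They were the retinoid receptors Rxrg and Rarb, with log2 fold changes of 0.37 and 0.28 (SE 0.064 and 0.061, edgeR adjusted p = 0.000324 and 0.00423), and Egr2 (Krox20) with 0.28 (SE 0.069, edgeR adjusted p = 0.0128). Egr2 segments the embryonic hindbrain and is also induced by activity in adult neurons, and its call was lost without WT library 1 (edgeR adjusted p = 0.143). The median of the 15 was 0.016. Cdx2 and Cdx4, activators of rear Hox genes in the embryo, had 0 reads in all libraries. In the Polycomb and trithorax genes, which keep Hox clusters silent or active, 1 of 24 rose (Cbx6, by 0.10 on the log2 scale, edgeR adjusted p = 2.61e-05) and 2 fell. Cbx7 fell by 0.14 (edgeR adjusted p = 0.00892) and Ezh1 by 0.12 (edgeR adjusted p = 0.0272), and the call of Cbx7 was lost without WT library 2 and that of Ezh1 without KO library 2 or WT library 1 and with DESeq2.

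Some marker lists of other parts of the brain were also lower in KO, to differing degrees, and their part in the Hox result was not tested. Among 24 genes of brainstem and spinal neurons 22 were tested, 3 fell and 0 rose, against 3.19% and 3.35% over all tested genes. The median log2 fold change was -0.20, and the sum was 67.1 and 65.2 CPM in KO against 76.6 and 75.3 CPM in WT. Relative to the WT mean the KO sums were 0.88 and 0.86, where the 38 Hox genes lay at 0.43 and 0.51. The sum of the 24 genes rests on abundant ones, of which Th was not called and Slc6a5 fell. Its ratio therefore does not give the change of the rarer genes in the list. Slc6a5, a glycine transporter of inhibitory neurons and not only of those in brainstem and spinal cord, had 4.91 and 5.83 CPM in KO and 10.95 and 12.03 CPM in WT (log2 fold change -1.10, SE 0.093, edgeR adjusted p = 1.07e-08). Slc6a2, the noradrenaline transporter, fell by 1.22 (SE 0.34, edgeR adjusted p = 0.0271), a call lost without any 1 library (edgeR adjusted p from 0.0636 to 0.143), and Tph2 of serotonin neurons fell by 0.53 (SE 0.12, edgeR adjusted p = 0.00556). Lbx1, a transcription factor of dorsal hindbrain and spinal neurons, had 0.464 and 0.198 CPM in KO and 0.743 and 0.634 CPM in WT and was not called. These 4 have the smallest p of the list, and not all of it lay on that side. Both KO libraries were below both WT libraries in 10 of the 24 genes, above them in 2 (Isl1 and Th, with log2 fold changes of 0.24 and 0.12, not called) and neither in the others. Among all genes with a read in any library, 18.4% had both KO libraries below both WT libraries. None of the 24 genes was at 0 in all libraries.

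The cerebellum forms from the part of the hindbrain in front of the Hox genes, and most of its markers were also lower in KO. Of 6 cerebellar markers 5 fell and 1 (Pcp4, also expressed outside the cerebellum) rose, and the summed level was 126 and 124 CPM in KO and 220.2 and 224 CPM in WT. Cbln3 fell by 1.23 on the log2 scale (SE 0.044, edgeR adjusted p = 1.79e-15). In the anterior homeobox genes, which mark forebrain and midbrain, 1 of 14 fell and 0 rose, against 3.19% and 3.35% over all tested genes. Limma-trend called 1 higher as well. The gene that fell was En2, which is expressed in the cerebellum, with 4.51 and 4.88 CPM in KO and 8.74 and 9.70 CPM in WT (log2 fold change -0.98, SE 0.095, edgeR adjusted p = 1.10e-07).

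Markers of tissues outside the hindbrain moved too. Pituitary markers summed to 29.4 and 29.2 CPM in KO and 61.6 and 61.7 CPM in WT, and 3 of the 4 tested fell (Gh, Pomc and Prl). The pituitary marker Lhb had 0 and 1 reads in KO and 0 and 0 in WT. Markers of the choroid plexus, part of which lies in the ventricle of the hindbrain, summed to 434 and 426 CPM in KO and 623.3 and 623.0 CPM in WT, and 4 of 6 fell. All 6 hippocampal markers fell, with a median log2 fold change of -0.49, from Dsp (-0.84) to Wfs1 (-0.077), and limma-trend and DESeq2 each called 5 of the 6. Markers of vessels and connective tissue overlapped between genotypes in their sums, and 1 of 10 was called (Cldn5, higher). Over all tested genes 3.19% were called lower and 3.35% higher. Of the blood and immune markers 2 of 4 tested rose (Hbb-bs and Hba-a1, both globins), and the list summed to 196 and 188 CPM in KO and 156 and 169 CPM in WT. Neuronal markers summed to 5346 and 5338 CPM in KO and 5214 and 5238 CPM in WT.

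**Figure D4:**
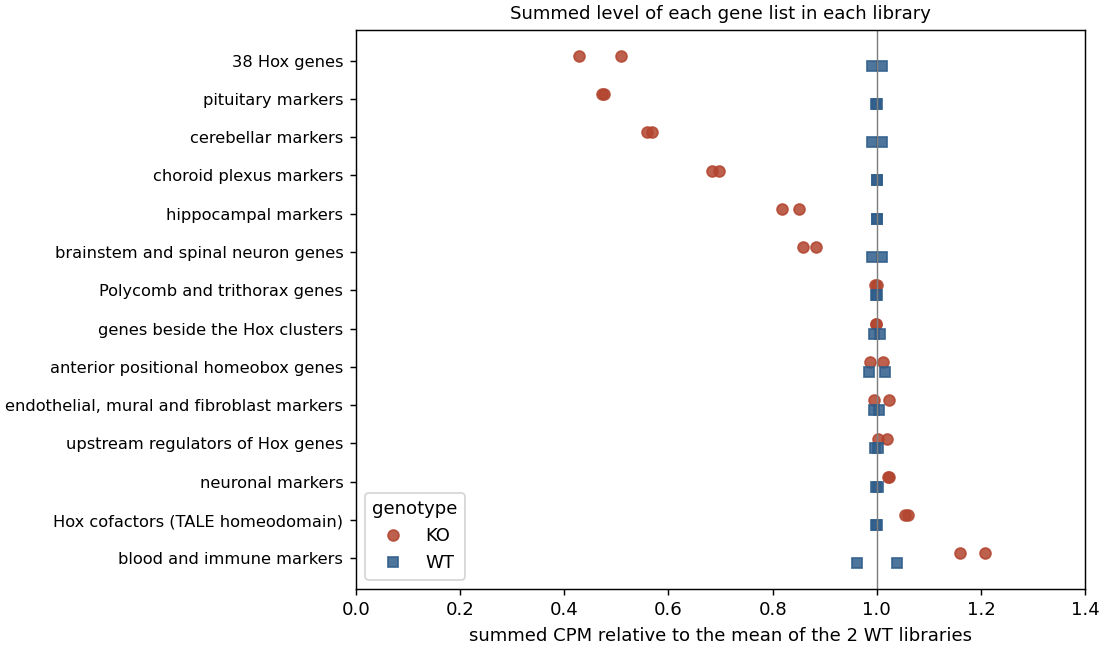
Summed CPM of each gene list in each library, divided by the mean of the 2 WT libraries; circles are KO, squares WT, and the vertical line is 1. The 38 Hox genes lie at 0.429 and 0.509 in KO, next to pituitary markers at 0.477 and 0.473 and cerebellar markers at 0.569 and 0.559, while genes beside the Hox clusters lie at 0.998 and 0.999.

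No gene next to the Hox clusters was called, where 3.19% of all tested genes were called lower and 3.35% higher. Of 13 flanking genes, 13 were tested and 0 were called by edgeR, by limma-trend or, among the 9 it gave an adjusted p, by DESeq2, with 0 at an unadjusted p under 0.05 (edgeR), and the median log2 fold change was -0.0010. Evx1 and Evx2, homeobox genes at the ends of the Hoxa and Hoxd clusters that mark spinal interneurons, had 8 and 12 reads (Evx1) and 10 and 25 reads (Evx2) in KO against 14 and 10 reads (Evx1) and 36 and 16 reads (Evx2) in WT. Both overlapped between genotypes. The flanking genes with low counts went both ways, with log2 fold changes of -0.45 for Evx2 (SE 0.54), -0.34 for Ttll6 (SE 0.27) and 0.44 for Skap1 (SE 0.24), and the summed level rests on abundant genes such as Hnrnpa1 and Cbx5.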

How the data were processed

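The values used are raw counts of reads per gene deposited by the authors in 1 table of the series. Libraries were made with strand selection and read as pairs, per the labels' protocols. FastQC, STAR 2.6.1c, featureCounts, DESeq2 and the GRCm39 build are named per the submitters' processing notes. The sources used here give no strand setting, annotation release or rule for multi-mapping reads, so reads of overlapping and antisense genes cannot be told apart. Of the 38 genes, 15 share exon bases with another gene in GENCODE M21.

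Symbols were found for 52081 of 55414 identifiers. The fit used edgeR 4.0.16 in R 4.3.3. It took genes that passed filterByExpr (minimum count 10), scaled libraries by TMM (factors 0.997 to 1.01) and compared genotypes by glmQLFit and glmQLFTest, with Benjamini-Hochberg adjustment over 21592 genes. A standard error is the log2 fold change over the square root of F. Intervals are exact (95%) and cover counting error only. Alternatives included DESeq2 1.42.0 and limma 3.58.1.

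The members and all gene lists were chosen with earlier results of these data known. Every member is accounted for. The rule for named genes gave full statistics to called members and to the 2 with most reads, and up to 4 genes with the smallest p to each list. Outside it, Hoxb6, Hoxd1, Evx1, Evx2, Ttll6, Skap1, Hnrnpa1, Cbx5, Isl1, Th, Pcp4, Wfs1, Lhb, Cdx2, Cdx4, Stra8, Xist and Ddx3y were named, and sequences shown, after their values were seen. Of the Hox cluster genes, 1 is not reported here.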

Additional observations from a re-analysis of the deposited data

How the results depend on the processing

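The summed Hox level was lower in KO under every setting run, with log2 ratios of -1.22 to -0.97 when 1 library was left out. It was -0.85 without the 10 genes that passed the filter, an alternative added after seeing the data. The number of Hox genes called lower was 0 by edgeR and became 1 with no filter (Hoxa5, adjusted p = 0.0208), 2 at an adjusted p under 0.1 (Hoxa5 and Hoxb6), and 0 to 1 with 1 library left out. With the replicate number as a block it was 1 (Hoxa5, log2 fold change -1.40, adjusted p = 0.0492). The labels share replicate numbers between the genotypes. Across the tested genes, the differences of library 1 from library 2 in KO and in WT had a correlation of 0.025. The numbers are therefore not taken as pairs. With the block 772 genes were lower and 818 higher over all genes. DESeq2 gave no Hox gene an adjusted p, so it has no Hox count. With a fold of at least 1.5, 82 genes were lower and 16 higher, against 688 and 723. Of the Hox genes 4 had at least 10 reads in every library and 15 at least 1. The log2 fold change of Hoxd1 turned to 0.066 with limma-trend and 0.025 with the block, and ranged over -0.50 to 0.68 with 1 library left out (0.081 without KO library 1, 0.68 without WT library 1); the cause was not tested. Having 2 libraries a genotype and at most 56 reads a gene and library limit what can be called.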

Other observations

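Noncoding genes within the Hox clusters were near the limit of counting. Hotairm1, the antisense RNA at the front end of the Hoxa cluster, had 3 and 0 reads in KO and 5 and 8 reads in WT. Its genotypes did not overlap, with KO below WT, an order that 18.4% of all genes with a read in any library had. Hoxb3os had 10 and 5 reads in KO and 9 and 8 in WT, and Hoxaas2 had 4 and 2 reads in KO and 4 and 2 in WT, so both overlapped. Evx1os had 6 and 4 reads in KO and 4 and 6 in WT, and Hoxaas3 had 0 and 2 reads in KO and 0 and 0 in WT. The antisense or intergenic genes Hoxa11os, Hottip, Hoxb5os, Hotair and Hoxd3os1 had 0 reads in all libraries, as did the 6 microRNA genes of the clusters, which libraries of polyadenylated RNA are not made to capture.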
